A study of Mus musculus with 16 samples.

Results

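Plin4, Hif3a and 8 other genes known to respond to glucocorticoids were followed across cortex and cerebellum of mice that carry the A391T variant of Slc39a8 and of wild-type mice. Slc39a8 encodes the metal transporter ZIP8, and the labels also give the substitution as A393T. The 10 genes are Plin4, Hif3a, Cdkn1a, Sgk1, Fkbp5, Tsc22d3, Zbtb16, Angptl4, Ddit4 and Nr3c1, out of 37583 genes in the count files, and all 10 were matched by symbol. They were chosen by the genotype values of these same libraries: Plin4 and Hif3a separated the genotypes in both regions under the names of the count files, though not under those of the RPKM table, and the others were added as glucocorticoid-responsive companions, the receptor gene Nr3c1 among them. The genotype values below are therefore a description and carry no test, whereas the comparison of the regions played no part in the choice and is tested.

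Cortex and cerebellum of 4 A391T mice and 4 wild-type mice, all of strain C57BL/6J, gave 16 bulk RNA-seq libraries, 1 per region and mouse. The study's methods describe its wild-type mice as males of 12 weeks and take the tissue from the hemisphere contralateral to the one used for glycomics. Age and sex of the A391T mice are not given in the sources used here. The labels give no treatment.

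Glucocorticoids such as corticosterone cross the cell membrane and bind the glucocorticoid receptor, the product of Nr3c1, which moves to the nucleus and binds DNA at palindromic response elements. Many of its targets respond within hours and follow the circadian and stress-evoked release of the hormone. Fkbp5, Tsc22d3, Sgk1, Zbtb16 and Ddit4 are widely used as readouts of receptor activity in brain. Some targets in this list also answer to other inputs, Cdkn1a to p53, Angptl4 to fatty acids and hypoxia, and Ddit4 to hypoxia and energy stress.

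The response element was searched as GNACANNNTGTNC, which is its own reverse complement and so reads the same on both strands, within 5000 bases on each side of the gene start in NCBIM37 (mm9). Of 37168 genes searched, 15.855% held at least 1 match and 1.388% held 2 or more. Fkbp5 held 4 matches, Plin4 held 2 and Cdkn1a held 1, and no match was found for the other 7 genes in this window. These are the matches with 6 bases on each side, on the strand of the gene, and they are shown because they are the receptor's recognition letters near the genes described below. Capitals mark the 13 letters of the element.
Plin4, intron, chr17:56248269-56248293, minus strand, middle at 944 from the start: agtccaGCACAGAATGTCCtctcgc
Plin4, intron, chr17:56245151-56245175, minus strand, middle at 4062 from the start: tacgaaGGACACGGTGTCCacaggg
Cdkn1a, intron, chr17:29231639-29231663, plus strand, middle at 3727 from the start: tggcggGCACAGTATGTTCccaggg
Fkbp5, between genes, chr17:28659067-28659091, minus strand, middle at -4610 from the start: gaaggaGGACAAAGTGTTCcatgct
Fkbp5, between genes, chr17:28655971-28655995, minus strand, middle at -1514 from the start: ctccagGCACAGGGTGTCCctaggg
Fkbp5, between genes, chr17:28655119-28655143, minus strand, middle at -662 from the start: cgcccgGGACATTGTGTTCcagccc
Fkbp5, intron, chr17:28650842-28650866, minus strand, middle at 3615 from the start: tctgggGGACACTGTGTTCtgggca
The RefSeq promoters of GRCm38.p6 run from 250 bases before to 50 after a start. For 7 of the 10 genes 15 promoters were searched, and 1 of them held the element, a start of Sgk1. Nr3c1 was left out of this search. Of 32851 promoters of that length, 0.475% held it.
Sgk1, promoter, chr10:21993696-21993720, plus strand, middle at -182 from the start: cggaaaGAACAGAATGTTCtcggag
A match is a description of the letters and not of binding, which was not measured.

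Libraries are called here by their labels, CTX for cortex and CBLM for cerebellum with the number of the mouse, so that CTX445 and CBLM445 come from 1 mouse, and a mouse is called by its cortex label. The names of the libraries differ between the deposited files, and this bears on every genotype value. For 8 of the 16 columns of the RPKM table, those of 4 mice, the values belong to the counts of a library with another name: the columns named CTX461, CTX462, CBLM461 and CBLM462 hold the libraries that the count files name CTX447, CTX448, CBLM447 and CBLM448, and the reverse. Groups follow the names of the count files below, where mice CTX445, CTX446, CTX461 and CTX462 are A391T and mice CTX447, CTX448, CTX479 and CTX480 are wild type. Under the names of the table the libraries of CTX447 and CTX448 would be A391T and those of CTX461 and CTX462 wild type, while mice CTX445, CTX446, CTX479 and CTX480 keep their genotype. The wild-type means that the study tabulates for glycosylation genes were set against the mean CPM of every possible set of 4 libraries of a region, a comparison chosen after the data were seen. The closest set was CTX461, CTX462, CTX479 and CTX480 in cortex and CBLM461, CBLM462, CBLM479 and CBLM480 in cerebellum, by the names of the count files. The standard deviation of the log2 ratio was 0.00063 over 248 genes in cortex and 0.0006 over 240 genes in cerebellum, where the next closest sets were at 0.0411 and 0.0435. These are the libraries that the RPKM table names wild type, so the means follow the grouping of the table, under which neither Plin4 nor Hif3a separates the genotypes. This shows which libraries were averaged, and which mouse gave each library was not tested.

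Counts on genes ranged from 20813432 to 30497206 per library. The summed level of the cortex neuron markers was 1980 to 2481 CPM in cortex and 607 to 745 CPM in cerebellum, and that of the cerebellum markers was 18.1 to 46.5 CPM in cortex and 2015 to 2382 CPM in cerebellum, so each library carried the markers of its label. Choroid plexus markers varied from 32.9 to 2678 CPM among the cerebellum libraries, and striatum markers from 214 to 732 CPM among the A391T cortex libraries. Entries on no single gene made up 27.1% of CTX480 against 23.6% to 24.7% in the other cortex libraries, and 21.4% of CBLM445 against 23.9% to 24.7% in the other cerebellum libraries. In bulk tissue, fewer cells of a type and less RNA per cell cannot be told apart.

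Plin4 encodes perilipin 4, a protein of lipid droplet surfaces. It lies on chromosome 17 from 56240014 to 56249225 on the minus strand of NCBIM37. In cortex the A391T mice CTX445, CTX446, CTX461 and CTX462 had 42, 46, 51 and 47 counts, and the wild-type mice CTX447, CTX448, CTX479 and CTX480 had 91, 245, 139 and 133. In CPM, the counts scaled to library size with TMM factors, the A391T cortex libraries had 1.80, 1.88, 2.17 and 1.66 and the wild-type ones 3.83, 8.59, 6.38 and 6.35. Every A391T value lay below every wild-type value, and the lowest wild-type library, of mouse CTX447, stood nearest to the A391T group. In cerebellum the counts were 41, 39, 80 and 77 in A391T and 127, 177, 107 and 168 in wild type, or 1.47, 1.51, 3.25 and 3.20 CPM against 5.03, 6.83, 4.06 and 6.70 CPM. The groups did not overlap there either, and the A391T mice fell into a lower pair, CTX445 and CTX446, and a higher pair, CTX461 and CTX462.

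The mean level of Plin4 in cortex was 1.88 ± 0.216 CPM in A391T and 6.29 ± 1.94 CPM in wild type (SD, n = 4 each), a log2 difference of -1.76 (SE, standard error, 0.22). In cerebellum it was 2.36 ± 1.00 CPM against 5.66 ± 1.34 CPM, a log2 difference of -1.26 (SE 0.30). Both values describe the choice of the gene. Under the names of the RPKM table the same libraries gave 4.02 ± 3.18 CPM in A391T and 4.14 ± 2.58 CPM in wild-type cortex, and 3.71 ± 2.67 CPM against 4.30 ± 1.65 CPM in cerebellum. The log2 differences were then 0.0004 and -0.22, and the groups overlapped in both regions. With the mice named alike in both files alone, 2 per group, Plin4 differed by -1.80 in cortex and by -1.84 in cerebellum on the log2 scale.

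Hif3a encodes a hypoxia-inducible factor alpha subunit whose variants can restrain the other alpha subunits. It lies on chromosome 7 from 17616856 to 17647776 on the minus strand. Cortex counts were 144, 153, 147 and 199 in A391T and 202, 369, 236 and 150 in wild type, or 6.18, 6.24, 6.26 and 7.02 CPM against 8.50, 12.9, 10.8 and 7.16 CPM. The groups stood apart by a narrow gap, between A391T mouse CTX462 at 7.02 CPM and wild-type mouse CTX480 at 7.16 CPM. Cerebellum counts were 97, 137, 155 and 211 in A391T and 307, 408, 378 and 257 in wild type, or 3.47, 5.29, 6.29 and 8.77 CPM against 12.1, 15.7, 14.3 and 10.3 CPM. Again every A391T value lay below every wild-type value.

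The log2 difference of Hif3a was -0.63 (SE 0.16) in cortex and -1.14 (SE 0.25) in cerebellum. Under the names of the RPKM table these became 0.12 and -0.12, with 8.46 ± 3.17 CPM in A391T and 7.82 ± 2.05 CPM in wild-type cortex. With only the mice named alike they were -0.55 and -1.48. Leaving out 1 library moved the cortex difference between -0.74, without CTX480, which set the narrow gap, and -0.47, without CTX448. The 8 mice fell in the same order for Hif3a in cortex and in cerebellum, from mouse CTX448 at the top through CTX479, CTX447, CTX480, CTX462, CTX461 and CTX446 to mouse CTX445, an order that does not depend on the names. Of 16589 genes kept over all libraries, 2 (0.012%) had the same order of all 8 mice in both regions. The separation that chose Hif3a fixes part of this order.

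**Figure D1:**
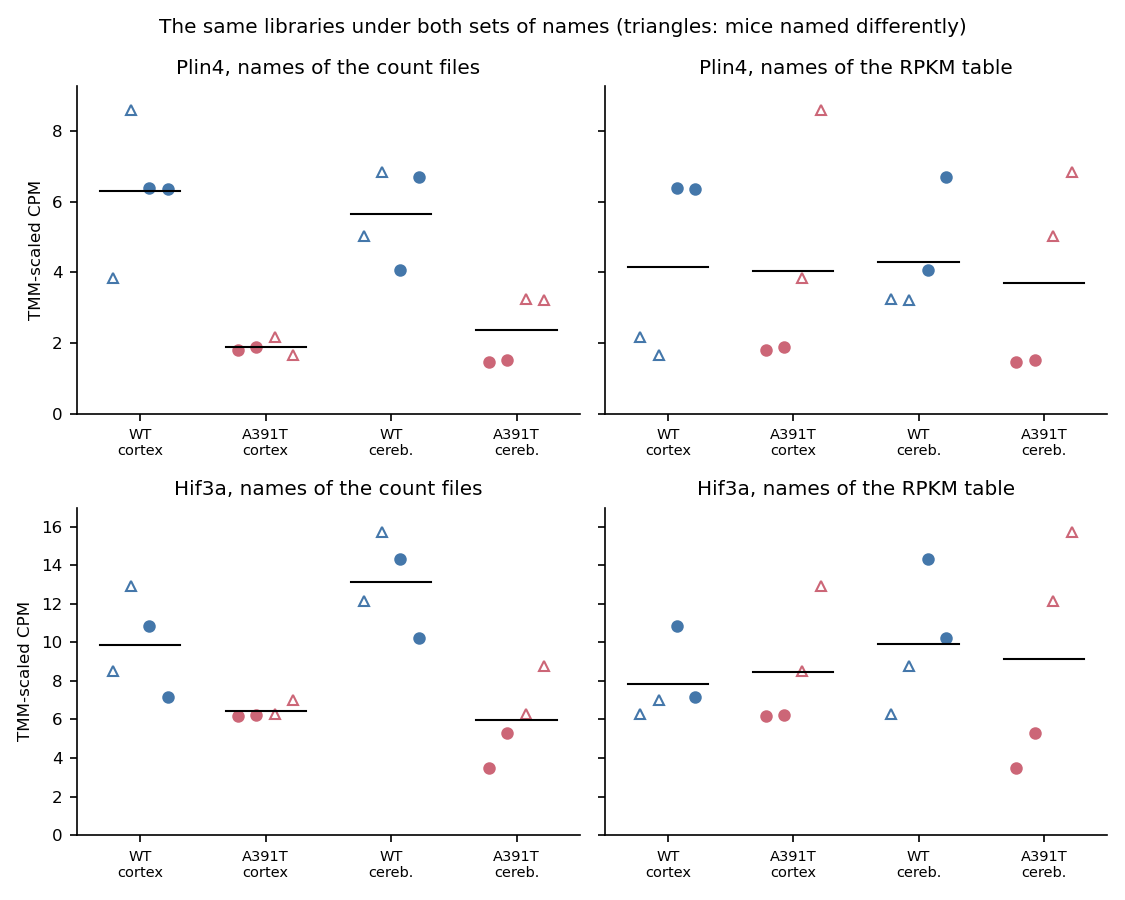
TMM-scaled CPM of Plin4 (top) and Hif3a (bottom) in each library, with groups as the count files name them (left) and as the RPKM table names them (right); bars are group means of 4 libraries and triangles are mice CTX447, CTX448, CTX461 and CTX462, whose names differ. On the left every A391T library lies below every wild-type library of its region, and on the right the groups overlap in both regions.

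Over the 10 genes, 2 did not overlap between the genotypes in cortex, Plin4 and Hif3a, where 3.24% of all genes tested did not. In cerebellum 3 did not, Plin4 and Hif3a lower and Ddit4 higher in A391T, where 7.41% of all genes tested did not. Every A391T library below every wild-type library in both regions held for Plin4 and Hif3a, and for 0.12% of all genes tested in both regions, 18 of 15011. With the RPKM table's names 1 member did not overlap in each region, Cdkn1a in cortex and Angptl4 in cerebellum, both lower in A391T, where 3.34% and 6.68% of all genes did not overlap, and no member stood below in both regions, where 0.04% of all genes did. Since the choice used these values, nothing is read from the counts.

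An adjusted p under 0.05 for the genotype was reached by 0.0126% of the genes tested in cortex, 2 of 15815, and by 0% in cerebellum, 0 of 15668 with edgeR's quasi-likelihood test. These are counts over all genes, and no test is given for the 10 genes, whose genotype values chose them. With RLE factors or library totals 0 genes passed in cortex. DESeq2 gave 14 genes in cortex and 37 in cerebellum, and 748 and 1340 genes had an unadjusted p under 0.05 in edgeR. Under the names of the RPKM table no gene passed in either region with edgeR, and 747 and 1226 had an unadjusted p under 0.05. The summed level of 8 immediate early genes, whose expression follows neuronal activity, was 1126 to 1566 CPM in A391T cortex and 800 to 1042 CPM in wild-type cortex, and the ranges overlapped in cerebellum. Of the 8, 5 had an unadjusted p under 0.05 in cortex, beside 4.73% of all genes, and 0 passed the adjusted p with edgeR. In cerebellum 3 of 7 measured had an unadjusted p under 0.05, Fos, Fosb and Nr4a1, all higher in A391T, beside 8.55% of all genes, and 0 passed. Under the table's names the cortex sums overlapped, at 800 to 1261 CPM in A391T and 826 to 1566 CPM in wild type. The cerebellum sums then did not, and A391T was the lower group, at 131 to 164 CPM against 171 to 316 CPM in wild type. Their part in the values of the glucocorticoid-responsive genes was not tested.

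**Figure D2:**
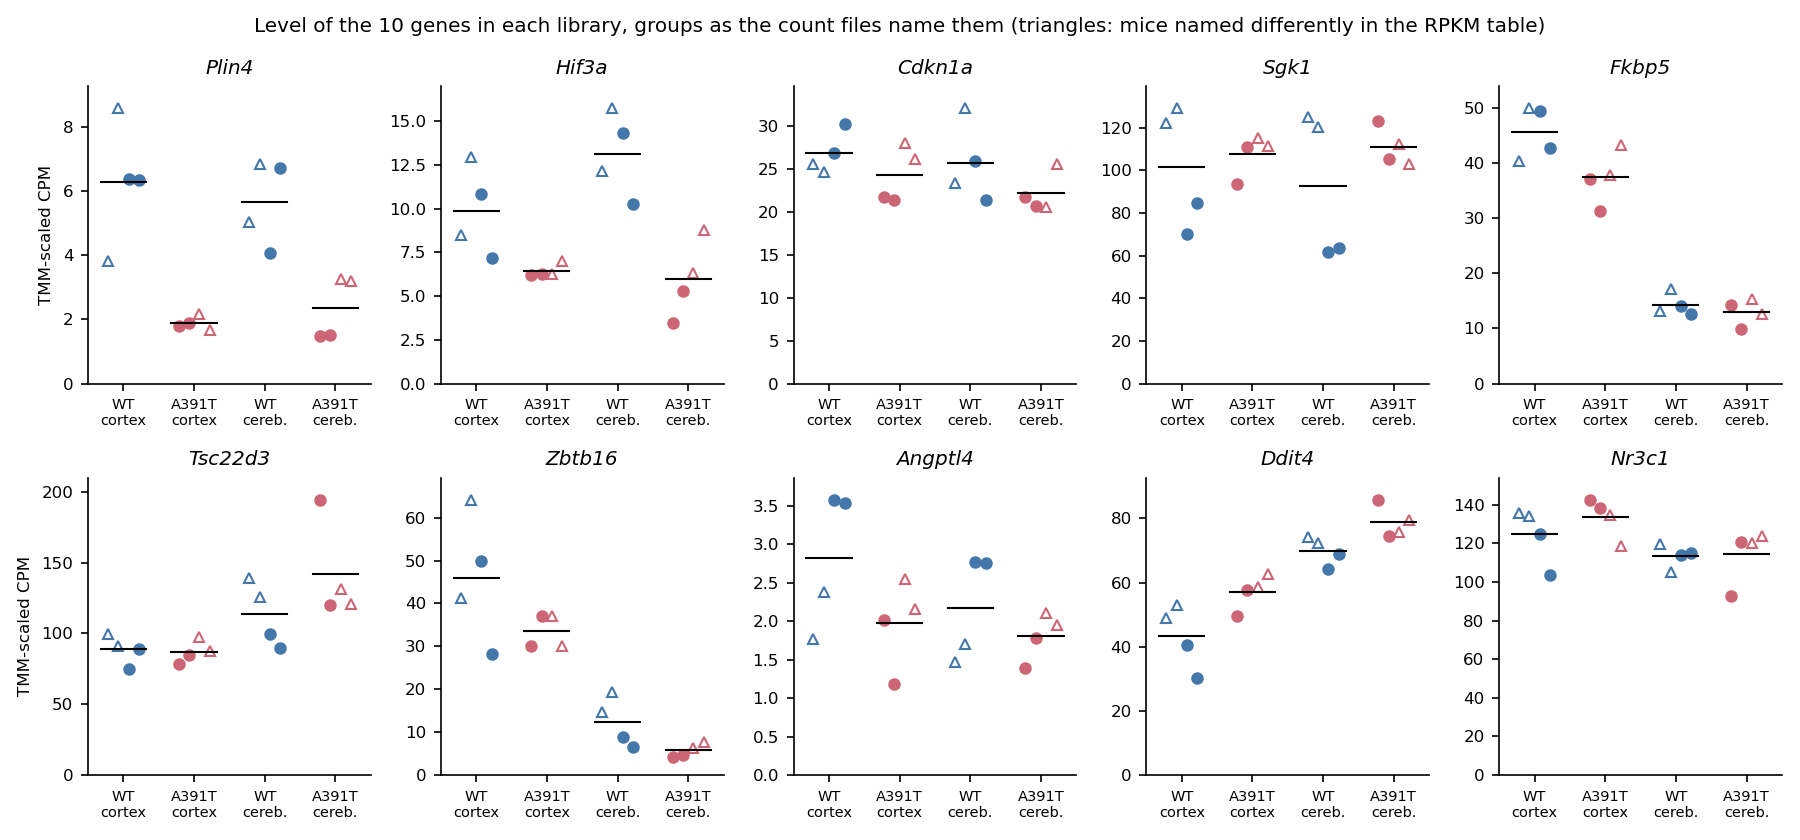
TMM-scaled CPM of each of the 10 genes in the 16 libraries, by genotype and region as the count files name them; bars are group means of 4 libraries, and triangles are the mice that the RPKM table names differently. Plin4 and Hif3a are lower in every A391T library than in any wild-type library of the region, Fkbp5 and Zbtb16 are lower in cerebellum, and Sgk1 is lowest in wild-type mice CTX479 and CTX480 in both regions.

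Nr3c1, the receptor gene, lies on chromosome 18 from 39570199 to 39650955. It had 124.7 ± 14.7 CPM in wild-type cortex, 133.6 ± 10.5 CPM in A391T cortex, 113.5 ± 5.99 CPM in wild-type cerebellum and 114.4 ± 14.7 CPM in A391T cerebellum (SD, n = 4 each). The values ranged from 92.5 to 142.7 CPM over all 16 libraries, and the genotypes overlapped in both regions. Cerebellum was not called different from cortex, with a log2 fold change of -0.14 (SE 0.09, edgeR adjusted p = 0.171) in wild-type mice and -0.24 (SE 0.10, edgeR adjusted p = 0.0676) in A391T mice. Under the names of the RPKM table the second value was -0.35 with an adjusted p of 0.00562 from edgeR. The A391T value also passed the adjusted p without CBLM445 or without CTX462, at 0.0485 and 0.0412 with edgeR, and at 0.0495 with DESeq2. In all it passed in 3 of 10 other settings, which ranged from -0.42 to -0.11, and in 2 of 8 fits without 1 library. The wild-type value passed at 0.00514 with edgeR without CTX480.

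Fkbp5 encodes the co-chaperone FKBP51, which lowers the hormone affinity of the receptor and is itself induced by it. In wild-type mice CTX447, CTX448, CTX479 and CTX480 the level was 40.4, 49.98, 49.4 and 42.7 CPM in cortex and 13.2, 17.2, 14.1 and 12.5 CPM in cerebellum. In A391T mice CTX445, CTX446, CTX461 and CTX462 it was 37.1, 31.3, 37.9 and 43.2 CPM in cortex and 14.3, 9.85, 15.3 and 12.6 CPM in cerebellum. Every cerebellum library lay below every cortex library, in each genotype. The level in cerebellum was 3.21-fold lower in wild-type mice, a log2 fold change of -1.68 (SE 0.11, edgeR adjusted p = 1.22e-07), and 2.91-fold lower in A391T mice, -1.54 (SE 0.14, edgeR adjusted p = 7.54e-06). Between the genotypes Fkbp5 overlapped in both regions, with log2 differences of -0.29 in cortex and -0.13 in cerebellum. They were -0.14 and 0.0011 under the names of the RPKM table, and without CBLM446 the cerebellum value was -0.01.

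Zbtb16 encodes the zinc finger transcription factor PLZF. In cortex the wild-type mice had 41.3, 64.2, 49.9 and 28.2 CPM and the A391T mice 30.1, 37.1, 37.1 and 30.1 CPM. In cerebellum the wild-type mice had 14.7, 19.3, 8.77 and 6.46 CPM and the A391T mice 4.19, 4.75, 6.29 and 7.77 CPM. All 8 mice had less in cerebellum, from 0.128 to 0.356 of their cortex level. Zbtb16 fell by 1.90 on the log2 scale from cortex to cerebellum in wild-type mice (SE 0.32, edgeR adjusted p = 0.000295) and changed by -2.57 in A391T mice (SE 0.19, edgeR adjusted p = 1.12e-06), or 3.74-fold and 5.92-fold. The genotypes overlapped in both regions through wild-type mouse CTX480, which had the lowest cortex value of all 8 mice. The log2 difference between genotypes, -0.46 in cortex and -1.09 in cerebellum, turned to 0.24 and 0.54 under the names of the RPKM table. Leaving out 1 library moved the cortex value between -0.62, without CTX480, and -0.25, without CTX448.

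Tsc22d3 encodes GILZ, a leucine zipper protein that mediates anti-inflammatory actions of glucocorticoids. The level was 88.8 ± 10.3 CPM in wild-type cortex, 87.1 ± 7.95 CPM in A391T cortex, 113.5 ± 22.9 CPM in wild-type cerebellum and 141.8 ± 35.6 CPM in A391T cerebellum (SD, n = 4 each). Each of the 8 mice had more in cerebellum than in cortex, from 1.01-fold in mouse CTX480 to 2.48-fold in mouse CTX445. Cerebellum was higher by 0.35 on the log2 scale in wild-type mice (SE 0.13, edgeR adjusted p = 0.0377) and by 0.69 in A391T mice (SE 0.15, edgeR adjusted p = 0.00254), both short of the 2-fold change required for a call. The wild-type difference missed the adjusted p in 5 of 8 fits without 1 library, up to 0.106 from edgeR without CTX479, and also with only the mice named alike (0.227) and in 1 model of all 16 libraries (0.0548).

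Ddit4 encodes REDD1, an inhibitor of mTORC1 signalling. In cortex the A391T mice had 49.7, 57.6, 58.5 and 62.8 CPM and the wild-type mice 49.0, 52.997, 40.5 and 30.2 CPM, with the lowest values in mice CTX479 and CTX480. In cerebellum the values were 85.9, 74.4, 75.7 and 79.4 CPM in A391T and 74.1, 72.4, 64.4 and 68.8 CPM in wild type. All 8 mice had more in cerebellum. Cerebellum was 1.61-fold higher in wild-type mice, a log2 fold change of 0.69 (SE 0.14, edgeR adjusted p = 0.00123), and 1.36-fold higher in A391T mice, 0.45 (SE 0.08, edgeR adjusted p = 0.000848).

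Sgk1 encodes a serum and glucocorticoid-regulated kinase of ion transport and survival pathways, abundant in oligodendrocytes. In wild-type mice CTX447, CTX448, CTX479 and CTX480 the level was 122, 129, 70.2 and 84.8 CPM in cortex and 125, 120, 61.7 and 63.6 CPM in cerebellum. The A391T mice ranged from 93.5 to 115 CPM in cortex and from 103 to 123 CPM in cerebellum. Mice CTX479 and CTX480 had the lowest values of all 8 mice in both regions, and mice CTX447 and CTX448 the highest in cortex. Ddit4 also had its 2 lowest mice in common between the regions, the same pair CTX479 and CTX480, as 4.177% of the 16589 genes had some such pair. Cerebellum did not pass the test against cortex, with log2 fold changes of -0.14 (SE 0.26, edgeR adjusted p = 0.659) in wild-type and 0.03 (SE 0.08, edgeR adjusted p = 0.796) in A391T mice. The summed level of the oligodendrocyte markers overlapped between the genotypes, at 5143 to 5910 CPM in A391T and 5205 to 5643 CPM in wild-type cortex, and 5003 to 6838 CPM against 4336 to 6361 CPM in cerebellum. In cerebellum 4 of the 6 markers had an unadjusted p under 0.05 between the genotypes, beside 8.55% of all genes, and 0 passed the adjusted p with edgeR.

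Angptl4 encodes a secreted inhibitor of lipoprotein lipase. It was the gene with the fewest counts among the 10 in wild-type libraries, from 37 to 78, and had 29 to 61 in A391T libraries. In cortex the wild-type mice had 1.77, 2.38, 3.58 and 3.53 CPM and the A391T mice 2.02, 1.18, 2.55 and 2.15 CPM. In cerebellum they had 1.46, 1.70, 2.77 and 2.75 CPM and 1.40, 1.78, 2.11 and 1.95 CPM. Mice CTX479 and CTX480 were the highest of all 8 mice in both regions, the reverse of Sgk1. Cerebellum did not pass the test against cortex, with -0.37 (SE 0.27, edgeR adjusted p = 0.256) in wild-type and -0.15 (SE 0.24, edgeR adjusted p = 0.608) in A391T mice. In the paired fit, with the mouse as a replicate block, the wild-type value was -0.38 and passed, with an edgeR adjusted p of 0.0392. Without 1 library the wild-type value ranged from -0.54 to -0.21 and the A391T value from -0.33 to -0.01.

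Cdkn1a encodes the cell cycle inhibitor p21. It ranged from 20.6 to 32.0 CPM over the 16 libraries, and cerebellum differed from cortex by -0.06 (SE 0.12, edgeR adjusted p = 0.658) in wild-type and by -0.15 (SE 0.11, edgeR adjusted p = 0.262) in A391T mice. With the RPKM table's names the wild-type value was -0.25 and passed, with an edgeR adjusted p of 0.0305, and with the mice named alike it was -0.27 and did not, at 0.158. Of 9 measured p53 targets, 6 passed the adjusted p between the regions in each genotype, 3 higher and 3 lower in cerebellum, beside 67.8% of all genes in wild-type and 62.8% in A391T mice. Of the 9, 0 passed between the genotypes with edgeR, with 0 and 1 at an unadjusted p under 0.05 in cortex and cerebellum.

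**Figure D3:**
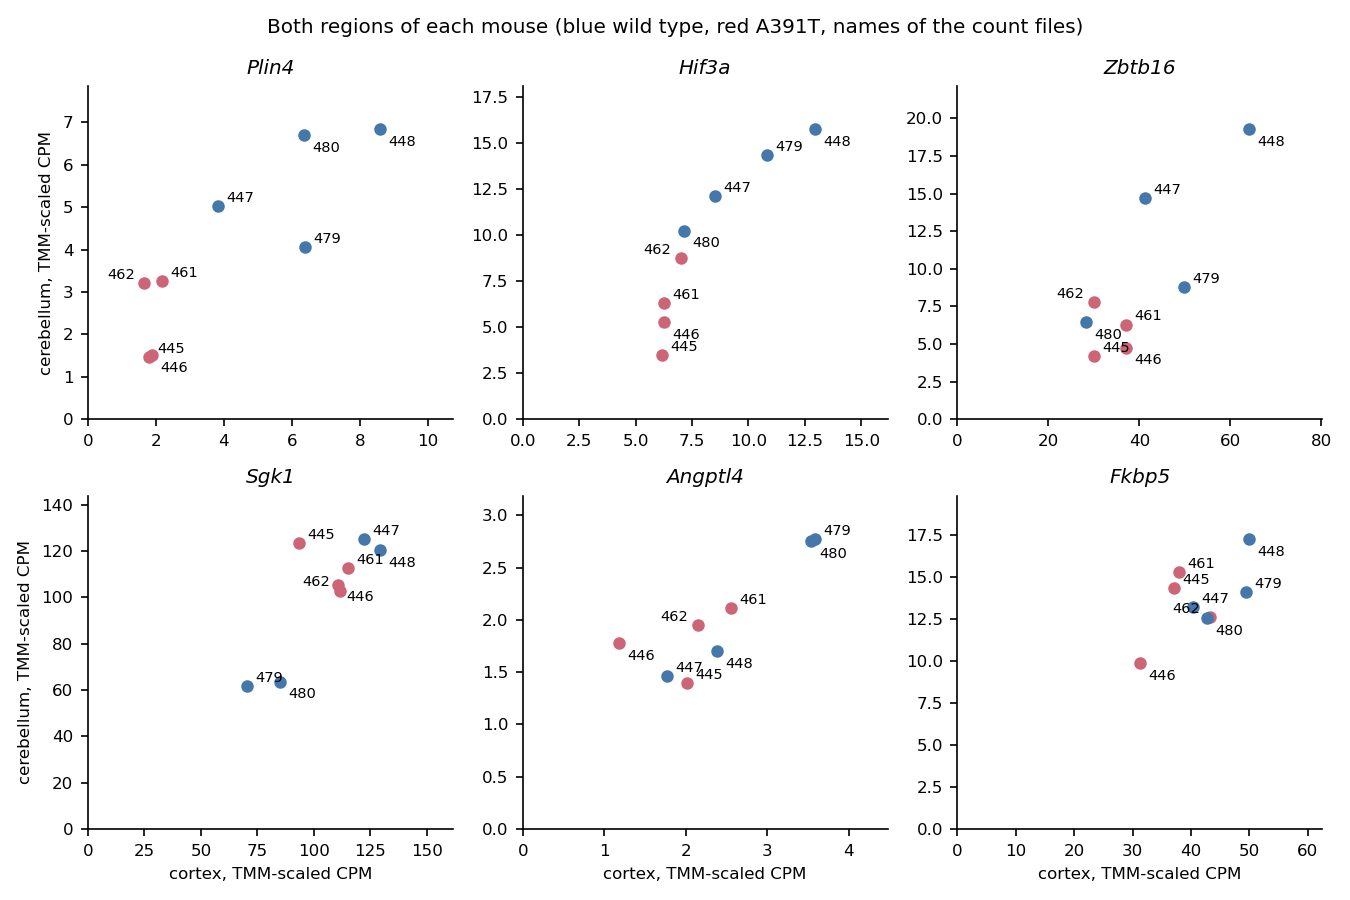
Cortex level (horizontal) against cerebellum level (vertical) of 6 genes in each of the 8 mice, as TMM-scaled CPM from 0, with the number of the mouse beside each point, blue for wild type and red for A391T by the names of the count files. Mice CTX479 and CTX480 lie lowest for Sgk1 and highest for Angptl4, and the points of Hif3a keep 1 order along both axes.

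Between the regions, 2 of the 10 genes were called in wild-type mice and 2 in A391T mice, Fkbp5 and Zbtb16 each time and both lower in cerebellum. By the RPKM table's names Fkbp5 was at -1.67 and -1.56 and Zbtb16 at -2.31 and -2.03 in wild-type and A391T mice, and both were called. A call needed an adjusted p under 0.05 and at least a 2-fold change. Over all genes tested 24.7% were called in wild-type mice and 24.7% in A391T mice, so that the share of the 10 genes was near that of all genes. By the adjusted p alone, 4 of the 10 passed in each genotype, Fkbp5, Zbtb16, Ddit4 and Tsc22d3, against 67.8% of all genes in wild-type and 62.8% in A391T mice. The median log2 fold change of the 10 genes was -0.14 in wild-type and -0.14 in A391T mice, beside 0.02 and 0.03 over all genes.

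Plin4 and Hif3a did not pass between the regions. For Plin4 the log2 fold change was -0.16 (SE 0.24, edgeR adjusted p = 0.560) in wild-type and 0.31 (SE 0.29, edgeR adjusted p = 0.379) in A391T mice, and both signs turned under the names of the RPKM table. For Hif3a it was 0.40 (SE 0.18, edgeR adjusted p = 0.0726) in wild-type and -0.13 (SE 0.23, edgeR adjusted p = 0.648) in A391T mice. All 4 wild-type mice had more Hif3a in cerebellum, from 1.22-fold to 1.43-fold. With the mouse as a replicate block, in a paired fit, the wild-type value was 0.42 with an adjusted p of 0.00333 from edgeR. It also passed with library totals (0.018), with the block under the RPKM table's names (0.0356), without CTX448 (0.0163) and without CBLM480 (0.0316), and missed the adjusted p in 7 of 10 other settings and in 6 of 8 fits without 1 library. A test of whether the region effect differed between the genotypes, added after the data were seen and fitted over all 16 libraries with the mouse as a block, called 0 of 16589 genes with edgeR, with 660 at an unadjusted p under 0.05. It is built from the genotype values and so is not read for the 10 genes.

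**Figure D4:**
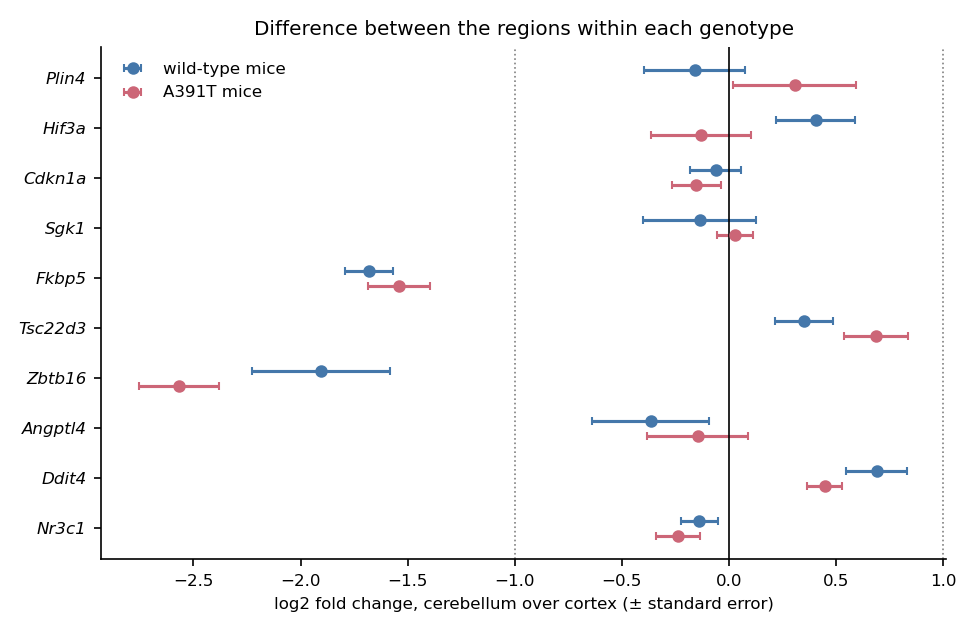
Log2 fold change of cerebellum over cortex for each of the 10 genes from edgeR, in wild-type mice (blue) and A391T mice (red), with bars of 1 standard error and dotted lines at a 2-fold change. Fkbp5 and Zbtb16 lie beyond the 2-fold line in both genotypes, at -1.68 and -1.90 in wild-type and -1.54 and -2.57 in A391T mice.

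Per length, in TPM, the level was highest for Ddit4 in all 4 groups, with 90.6 ± 21.4 TPM in wild-type cortex and 162.5 ± 7.57 TPM in wild-type cerebellum (SD, n = 4 each). In wild-type cortex Sgk1 followed with 68.6 ± 19.1 TPM, Tsc22d3 with 63.8 ± 6.59, Cdkn1a with 42.5 ± 3.69, Nr3c1 with 38.4 ± 4.65, Zbtb16 with 31.9 ± 10.8 and Fkbp5 with 19.3 ± 2.33 TPM. Hif3a, Plin4 and Angptl4 were lowest at 4.89 ± 1.32, 3.87 ± 1.23 and 2.58 ± 0.834 TPM. Neighbours in this order overlapped, apart from Tsc22d3 over Cdkn1a and Fkbp5 over Hif3a. TPM used the lengths of the RPKM table, which for Nr3c1 is 11456 bases against 7425 exon bases in the annotation. With exon bases Nr3c1 was at 59.2 ± 7.18 TPM and came before Cdkn1a at 42.5 ± 3.69 TPM, and the rest of the order stayed. In A391T cortex Plin4 was last at 1.17 ± 0.144 TPM, overlapping Angptl4 at 1.83 ± 0.536 TPM. In wild-type cerebellum Fkbp5 was at 6.66 ± 0.888 TPM, below and overlapping Hif3a at 7.20 ± 1.28 TPM. With exon bases that order turned, with Fkbp5 at 8.81 ± 1.17 TPM and Hif3a at 7.64 ± 1.35 TPM.

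The genes most like Plin4 were found by Pearson correlation of log2 CPM, as deviations from the region mean, over the 16 libraries and among 16589 genes. They were Agxt2l1 (r = 0.93), an ethanolamine-phosphate phospho-lyase gene, Fbln5 (0.90), a gene of an elastic fibre protein, Vwf (0.87), the von Willebrand factor gene of endothelium, Git1 (0.87), Mertk (0.85), a receptor kinase gene of phagocytosis, Micalcl (0.84), Fam107a (0.83) and Sox18 (0.83), an endothelial transcription factor gene. The points share mice, and the genotype difference that chose Plin4 enters r, so these values are descriptions. Of the 8, 5 stood below in A391T in both regions without overlap, Agxt2l1, Fbln5, Vwf, Git1 and Sox18, beside 0.12% of all genes, which the choice by likeness to Plin4 favours. By the RPKM table's names all 8 overlapped between the genotypes in each region. Agxt2l1 had 16.1 to 20.2 CPM in A391T and 24.2 to 34.9 CPM in wild-type cortex, and 60.4 to 77.4 CPM against 90.2 to 108.8 CPM in cerebellum. With deviations taken from the mean of each genotype and region, a measure added after the data were seen, r with Plin4 was 0.68 for Agxt2l1, 0.78 for Fbln5, 0.58 for Vwf and 0.33 for Sox18. The endothelial marker list did not separate the genotypes: its sum was 287 to 327 CPM in A391T and 298 to 387 CPM in wild-type cortex, and 256 to 288 CPM against 249 to 303 CPM in cerebellum.

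The genes most like Hif3a by the same measure were Sik3 (0.90), a salt-inducible kinase gene, Mertk (0.90), Dpp9 (0.89), a dipeptidyl peptidase gene, Fbln5 (0.89) and Mapk4 (0.89), so that Mertk and Fbln5 are in both sets. Hif3a was the 12th gene in likeness to Plin4 (r = 0.81), and Zbtb16 was the 14th in likeness to Hif3a (0.86). With deviations from the mean of each genotype and region, Hif3a and Zbtb16 had r = 0.74 and Plin4 and Hif3a 0.57. Among the other pairs the highest value was 0.76 for Sgk1 and Tsc22d3 and the lowest was -0.74 for Sgk1 and Angptl4.

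Of 26 further glucocorticoid targets, 25 were measured in each genotype comparison and 0 passed the adjusted p in either region with edgeR. The other one, Lcn2, the lipocalin 2 gene, was left out by the filter on low counts. It had 2, 2, 2 and 5 counts in A391T cortex and 5, 66, 425 and 701 in wild-type cortex, the highest in CTX479 and CTX480, and passed without the filter (edgeR adjusted p = 0.0229, lower in A391T). In cortex 8 of 25 had an unadjusted p under 0.05, 4 lower and 4 higher in A391T, and in cerebellum 6 of 25 did, all 6 lower, beside 4.73% and 8.55% of all genes. Their median log2 difference was -0.04 in cortex and 0.03 in cerebellum, beside 0.0003 and 0.006 over all genes. The summed level of the 26 genes was 3514 to 4011 CPM in A391T and 3833 to 4186 CPM in wild-type cortex, and 3316 to 3513 CPM against 3635 to 3927 CPM in cerebellum, where the genotypes did not overlap. The sum is weighted by level: Fam107a alone, an actin-associated protein gene, had 604 to 717 CPM in A391T and 828 to 1022 CPM in wild-type cerebellum. By the table's names the cerebellum sums overlapped, at 3316 to 3927 CPM in A391T and 3455 to 3807 CPM in wild type. With DESeq2 0 of the genes of all 5 lists passed in cortex and 3 passed in cerebellum, Fam107a and Xdh lower in A391T at -0.50 and -0.56 and Hsd11b1 higher at 0.29. These lists were written with earlier results of these data known. Between the regions, 14 of 26 glucocorticoid targets passed the adjusted p in wild-type mice, 7 higher and 7 lower in cerebellum, a share below the 67.8% of all genes. By the 2-fold rule Bcl6 (1.73), Ucp2 (1.29), Gpd1 (1.23) and Mt2 (1.05) were higher and Arl4d (-1.22), Mertk (-1.13) and Cebpb (-1.03) lower, named after their values were seen. In A391T mice 16 of 25 passed, 9 higher and 7 lower, beside 62.8% of all genes, and the called genes were the same but for Mt2.

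Of the genes of hormone handling, Hsd11b1 and Fkbp4 were called between the regions in both genotypes. Hsd11b1, which regenerates active glucocorticoid inside the cell, was higher in cerebellum by 2.02 on the log2 scale in wild-type (adjusted p = 3.80e-09 from edgeR) and by 2.17 in A391T mice (adjusted p = 6.15e-08 from edgeR), and Fkbp4, the co-chaperone that counters FKBP51, was higher by 1.04 and 1.27. Nr3c2, the mineralocorticoid receptor gene, was lower in cerebellum by the adjusted p, at -0.25 and -0.45. Of the 11 measured genes of this list 5 passed the adjusted p in wild-type and 6 in A391T mice, beside 67.8% and 62.8% of all genes, and 0 passed between the genotypes in either region with edgeR, with 2 and 1 at an unadjusted p under 0.05.

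Of 14 hypoxia factors and targets, 13 passed the adjusted p between the regions in wild-type and 11 in A391T mice, beside 67.8% and 62.8% of all genes. Hif1a, an alpha subunit of the same family as Hif3a, was higher in cerebellum by 1.197 in both genotypes, and Epas1, another alpha subunit, lower by 0.27 and 0.32 on the log2 scale. Between the genotypes 0 of 14 passed with edgeR, with 0 at an unadjusted p under 0.05 in cortex and 2 in cerebellum, and Hif1a differed by 0.01 and 0.04. Of the other perilipins, Plin2 was higher in cerebellum by 1.00 and 1.10 and Plin3 by 0.73 and 0.78, whereas Plin5 was at -0.50 in wild-type mice (edgeR adjusted p = 0.0708) and at -1.31 in A391T mice (edgeR adjusted p = 0.000975), a difference between genotypes that did not pass (edgeR adjusted p = 0.806). Between the genotypes 0 of 11 perilipin and lipid genes passed with edgeR, with 1 and 0 at an unadjusted p under 0.05, and Plin2 differed by 0.02 in cortex and 0.14 in cerebellum.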

How the data were processed

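Per the study's methods and the labels, the authors prepared stranded libraries of polyA RNA and aligned 50-base reads with STAR to mm9. By the same sources HTSeq assigned the reads to Ensembl genes without regard to strand. The study's reporting summary gives the versions of STAR, HTSeq and edgeR. Counts were deposited as whole numbers, not normalized. The deposited RPKM table was used for gene symbols, gene lengths and its column names; its RPKM values were matched to the counts. From 21.4% to 27.1% of a file's entries lay on no single gene and stayed out. Antisense reads cannot be told apart, and 0.1% of the exon bases of Plin4 overlap a gene on the other strand.

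Tests ran on the counts in edgeR 4.0.16 under R 4.3.3 (filterByExpr, TMM, quasi-likelihood test, two-sided, Benjamini-Hochberg adjustment over all genes tested), and the scripts were tested on simulated data. CPM used TMM factors over all 16 libraries; TPM used the table's lengths, and exon bases as an alternative added later. Likeness used log2(CPM + 0.1). Members, lists and tests were chosen with earlier results of these data known. Named were the 10 members, the genes most like Plin4 (8) and Hif3a (5), listed genes past the adjusted p between genotypes, and genes named after their values were seen. Mouse numbers pair the regions by animal, per the labels and methods. Same-mouse deviations correlated from -0.10 to 0.13 across genes (median -0.06). Those of different mice of a genotype correlated from -0.17 to 0.16 (median 0.02), so the regions of 1 mouse were not more alike by this measure. P-values measure the spread between 4 mice a group. Alternatives were DESeq2 1.42.0, RLE factors, library totals, 2 other filters, all libraries in 1 model, the replicate block, the RPKM table's names, mice named alike and each library left out.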

Additional observations from a re-analysis of the deposited data

Results flagged for a closer look

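In each of the 40 combinations of gene and group, the highest or lowest of 4 libraries was compared with the others by the gap over the range. Chance alone marks about 1 in 20 such groups at the 95% level, and 3 were marked. Hif3a in A391T cortex had 7.02 CPM in CTX462, apart from 6.18 to 6.26 CPM in the other 3 mice. Tsc22d3 in A391T cerebellum had 195 CPM (194.6) in CBLM445, apart from 120 to 132 CPM. Nr3c1 in the same library had 92.5 CPM, apart from 120 to 124 CPM in the other 3 mice. Library CBLM445 therefore stood apart for the receptor gene, which was low, and for Tsc22d3, which was high. Its entries on no single gene, at 21.4%, were also below the 23.9% to 24.7% of the other cerebellum libraries, and their part in these values was not tested. Without that library the log2 fold change of Nr3c1 between the regions in A391T mice was -0.14 (adjusted p = 0.0485 from edgeR) and that of Tsc22d3 was 0.50.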

How the results depend on the processing

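The 2 region calls, Fkbp5 and Zbtb16, were made under every setting run in both genotypes, and 4 of the 10 genes passed in each genotype by the adjusted p alone. Of these, wild-type Tsc22d3 missed it in 2 other settings and in 5 fits without 1 library. Wild-type Hif3a passed it in 3 other settings and in 2 fits without 1 library, and wild-type Cdkn1a under the RPKM table's names (-0.25, edgeR adjusted p = 0.0305). A391T Nr3c1 also passed it in 3 other settings and in 2 fits without 1 library. Wild-type Nr3c1 passed in 1 such fit and wild-type Angptl4 in 1 other setting. The replicate block (the paired fit by mouse) left 2 genes called in wild-type and 2 in A391T mice and moved no fold change of the 10 genes past the 2-fold line. Library totals raised the median log2 fold change of all genes from 0.02 to 0.14 in wild-type and from 0.03 to 0.16 in A391T mice, and the genes higher in cerebellum from 5051 of 10056 to 6507 of 10682 in A391T mice.

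Uncalled region values that changed sign were these. Under the RPKM table's names Plin4 was at 0.0771 in wild-type and -0.16 in A391T mice, at 0.17 and -0.13 with the replicate block, Hif3a at 0.09 and Cdkn1a at 0.0516 and, with the block, 0.0363 in A391T mice. Under library totals Cdkn1a was at 0.0549 in wild-type and Hif3a at 0.0024 in A391T mice. With only the mice named alike Nr3c1 was at 0.0012 in wild-type and Plin4 at -0.33 in A391T mice. Without 1 library, wild-type Plin4 ranged from -0.34 to 0.0336, Cdkn1a from -0.18 to 0.0249 and Sgk1 from -0.31 to 0.0157, and A391T Hif3a from -0.37 to 0.0638 and Sgk1 from -0.0406 to 0.0642. The cause was not tested.

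The members without overlap between the genotypes were 1 in each region under the table's names, against 2 and 3. Listed genes past the adjusted p between the genotypes were 1 in cortex without a filter on low counts (Lcn2, lower in A391T, which also passed with the mice named alike) and 3 in cerebellum with DESeq2. Without 1 library, Plin4 differed between the genotypes by -1.93 to -1.56 in cortex and -1.47 to -1.09 in cerebellum, and Hif3a by -0.74 to -0.47 and -1.38 to -0.95. Angptl4 rests on 29 to 78 counts per library and Plin4 on 39 to 245, and how small a difference these counts could show was not tested.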
